A study of Homo sapiens with 2 samples.

Results

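The aminoacyl-tRNA synthetase genes examined here were 35 genes, 19 for cytosolic and 16 for mitochondrial enzymes, of 20037 protein-coding genes with a RefSeq transcript. They were taken from a list of symbols by enzyme family, which was drawn up with earlier results of these data known. PHF8 occupancy had been profiled by chromatin immunoprecipitation and sequencing (ChIP-seq) in RKO cells, a line established from a human colon carcinoma. One group of cells was transfected with empty vector and the other with a plasmid for APOC2 overexpression, and the same PHF8 antibody was used for both. APOC2 encodes an apolipoprotein of lipid-carrying particles. There was 1 library per condition, so every difference below is one between these libraries and none could be set against the spread of replicates. The vector library had 4015 listed peaks and the APOC2 library had 8928. Peak tables hold no expression values, so neither the cell line label nor the level of APOC2 was checked.

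Each aminoacyl-tRNA synthetase joins one amino acid to its tRNAs and so supplies charged tRNA to the ribosome. Most amino acids have one enzyme for the cytosol and a separate, nuclear-encoded enzyme for the mitochondrion. GARS1 and KARS1 make both forms from one gene and were counted as cytosolic. Several cytosolic enzymes sit in a multi-synthetase complex, and many cytosolic synthetase genes are known targets of the amino acid response, in which the factor ATF4 binds a composite C/EBP-ATF element. PHF8 is a histone demethylase whose PHD finger binds methylated histone H3 at active gene starts and whose catalytic domain removes repressive methyl marks.

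The genes occupied in both libraries have divergent starts, and the short intervals between them are shown because the APOC2 peaks cover them whole; the vector peaks do not reach them, and no summit lies in them. HARS1 and HARS2, which encode the cytosolic and the mitochondrial histidyl-tRNA synthetase, start head to head with 84 bases between them. KARS1, for lysyl-tRNA synthetase, lies head to head with TERF2IP, which encodes a telomere-binding protein, with 107 bases between the starts. Both intervals are printed on the strand of the first gene, from RefSeq (GRCh38.p14), with matches to CCGGAAGT, the letters bound by ETS factors, in capitals on either strand. The HARS interval (chr5:140691371-140691454, minus strand) held 2 such matches, 1 beside each start, and the KARS1 interval (chr16:75647666-75647772, minus strand) held none.
HARS1 to HARS2: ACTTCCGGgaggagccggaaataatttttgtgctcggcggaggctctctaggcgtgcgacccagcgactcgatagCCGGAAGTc
KARS1 to TERF2IP: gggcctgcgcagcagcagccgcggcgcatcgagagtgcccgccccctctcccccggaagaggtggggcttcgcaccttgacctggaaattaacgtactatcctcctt

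PHF8 peaks lay at the boundary of 3 synthetase genes in the vector library and of 12 in the APOC2 library. A gene was called occupied when the midpoint of a peak lay within 1000 bp of its annotated start or end, its boundary. The vector set was HARS1, HARS2 and KARS1 (8.57% of the 35 genes), against 5.95% of all coding genes. The APOC2 set was 34.3% of the genes, against 23.8% of all coding genes. All 3 genes of the vector set were in both libraries, where the background was 5.84% of coding genes. The other 9 had a peak in the APOC2 library alone (25.7%, against 18.0% of coding genes). The HARS1 and HARS2 entries rested on 1 peak in each library, so the genes stood for 2 vector and 11 APOC2 peaks. Every vector peak at a member was matched by an APOC2 peak at the same gene. This was the rule for coding genes, as 1171 of the 1192 with a vector boundary peak also had one in APOC2. The APOC2 count fell to 6 when the APOC2 table was cut to as many top-ranked peaks as the vector table has, and to 7 with a fold enrichment of at least 5, beside vector counts of 3 and 2. With direct overlap of peak and boundary the counts were 0 and 4. The shares of all coding genes are not given for these settings. With all listed peaks, the shares of the synthetases moved between the libraries in the same direction as those of all coding genes. Nothing particular to the synthetases is called from these counts.

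Cytosolic and mitochondrial enzymes both had more occupied genes in the APOC2 library when all listed peaks were used. In the vector library 2 of 19 cytosolic genes (10.5%) and 1 of 16 mitochondrial genes (6.25%) had a boundary peak. In the APOC2 library the numbers were 7 of 19 (36.8%) and 5 of 16 (31.3%). A peak in the APOC2 library alone was found at 5 cytosolic and 4 mitochondrial genes, which were 26.3% and 25% of each class. One gene more or less in either class would move its share by more than the classes differed in this comparison. With both tables limited to the same number of top-ranked peaks, the mitochondrial count was 1 in each library and the cytosolic count was 2 with vector and 5 with APOC2. The share of all coding genes is not given for that limit, so nothing particular to the cytosolic genes is called from these counts.

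**Figure D1:**
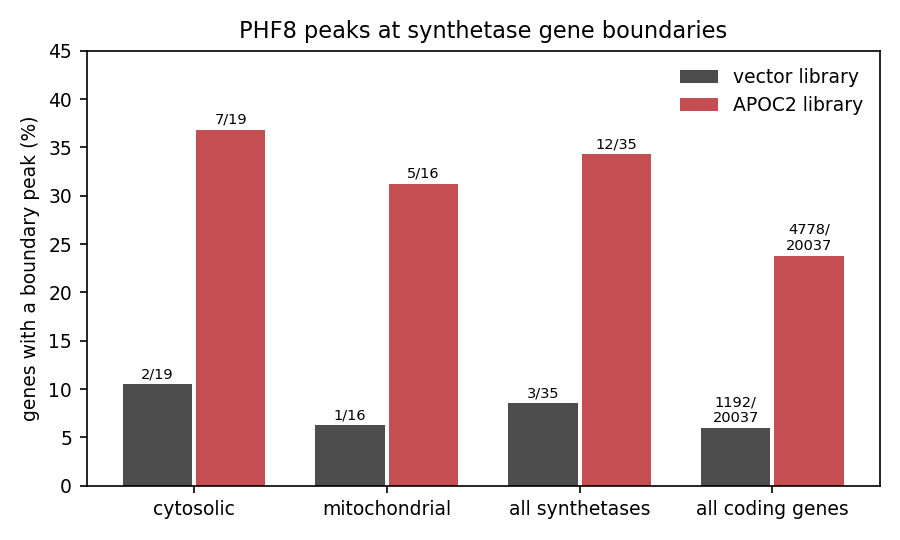
Share of genes with a PHF8 peak midpoint within 1000 bp of a gene boundary (vertical axis, percent) in the vector (grey) and APOC2 (red) libraries, for cytosolic, mitochondrial and all 35 synthetase genes and for all coding genes, with the gene counts above the bars. The APOC2 bar is the higher in every set, and the cytosolic and mitochondrial bars stand close together at 36.8% and 31.3%.

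The histidyl pair was the strongest vector site among the synthetases. Its vector peak (chr5:140691505-140691743) had a fold enrichment over local background of 6.81, from a pileup of 28.7 fragments at the summit over a background of 3.36. Its APOC2 peak (chr5:140691145-140691710) had a fold enrichment of 5.16, from 21 fragments over 3.27. The vector peak lay just inside HARS2 and did not touch the interval between the starts, whereas the APOC2 peak was 566 bp long and covered both starts. The summits were 63 bp apart. On the log2 scale the fold enrichment thus differed by -0.40 (APOC2 minus vector). Of the 1171 coding genes occupied in both libraries 89.4% had a ratio of fold enrichment above 1, with a median log2 ratio of 0.52, and 1.62% had a lower ratio than HARS1. Scaled for depth, the APOC2 pileup was 0.879 times the vector pileup, with a 95% interval of 0.477 to 1.60. The fall was thus not distinguishable from no change at this depth. On the log2 scale the interval, -1.07 to 0.67, also held 0.57, the median depth-scaled ratio of the coding genes occupied in both. The pair was therefore not distinguishable from that median either.

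KARS1 moved the other way. Its vector peak (chr16:75647847-75648433) had a fold enrichment of 3.88 with a pileup of 23.8, and its APOC2 peak (chr16:75647415-75648439) had 7.04 with a pileup of 38. The APOC2 peak contained the whole vector peak and reached over the KARS1 start, which the vector peak did not. The log2 ratio of fold enrichment was 0.86, above that of 81.6% of the coding genes occupied in both. The depth-scaled pileup was 1.92 times higher in the APOC2 library, with an interval of 1.12 to 3.35 that covers counting error only. On the log2 scale that interval, 0.17 to 1.74, also held 0.57, the median depth-scaled ratio of the coding genes occupied in both. The summits, 11 bp apart, lay 457 and 468 bp inside TERF2IP and 565 and 576 bp upstream of KARS1, so this signal was nearer to the neighbour's start than to that of KARS1.

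Among the cytosolic genes occupied in APOC2 alone, EPRS1 had the strongest peak. EPRS1 encodes the glutamyl-prolyl-tRNA synthetase, which joins 2 enzymes in 1 chain and belongs to the multi-synthetase complex. Its peak (chr1:220046146-220046480) had a fold enrichment of 8.34, higher than 88.7% of the 4421 APOC2 peaks at coding gene boundaries, with 27 fragments over a background of 2.36. The nearest vector peak was 4311 kb away. NARS1, for asparaginyl-tRNA synthetase, had a fold enrichment of 7.17 from 27 fragments at chr18:57621992-57622221. These genes and KARS1 were the members above an APOC2 fold enrichment of 7.

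The remaining cytosolic peaks were below the APOC2 median of 5.28 for coding boundaries. FARSA, which encodes the catalytic subunit of phenylalanyl-tRNA synthetase, had a fold enrichment of 5.17 from 30 fragments at chr19:12933456-12933707, where the antisense gene FARSA-AS1 also has a boundary, 286 bp from the midpoint. FARSB, the gene of its partner subunit, had no peak within 205 kb of a boundary in either library. QARS1, for glutaminyl-tRNA synthetase, had the weakest cytosolic peak at chr3:49104488-49104730, with a fold enrichment of 3.49 from 17 fragments. AARS1, for alanyl-tRNA synthetase, was occupied at its end and not at its start: its peak (chr16:70251686-70251936) had a fold enrichment of 4.23 from 42 fragments over a background of 9.16. That midpoint was 487 bp beyond the end of AARS1 and 129 bp inside the start of EXOSC6, a gene for an RNA exosome subunit. AARS1 was the only member counted through a gene end.

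The mitochondrial peaks in the APOC2 library, that of the histidyl pair included, were all below the APOC2 median fold enrichment for coding boundaries. WARS2, for tryptophanyl-tRNA synthetase, had 5.01 from 14 fragments, the smallest pileup of any member, at chr1:119140760-119141041. IARS2, for isoleucyl-tRNA synthetase, had 4.83 from 44 fragments, the largest pileup of any member, at chr1:220094171-220094515, where the background was 8.32. The ranks of WARS2 and IARS2 by fold enrichment were thus next to each other, although their pileups were at opposite ends. PARS2, for prolyl-tRNA synthetase, had 4.34 from 25 fragments at chr1:54764228-54764484. YARS2, for tyrosyl-tRNA synthetase, had the lowest fold enrichment of any member, 3.30 from 27 fragments, at chr12:32755502-32755897. Fragment number and fold enrichment therefore ordered the genes differently, with the local background between 1.996 at WARS2 and 9.16 at AARS1. IARS2 and EPRS1 are near neighbours on chromosome 1, with 47.6 kb between their limits, and each had its own APOC2 peak.

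**Figure D2:**
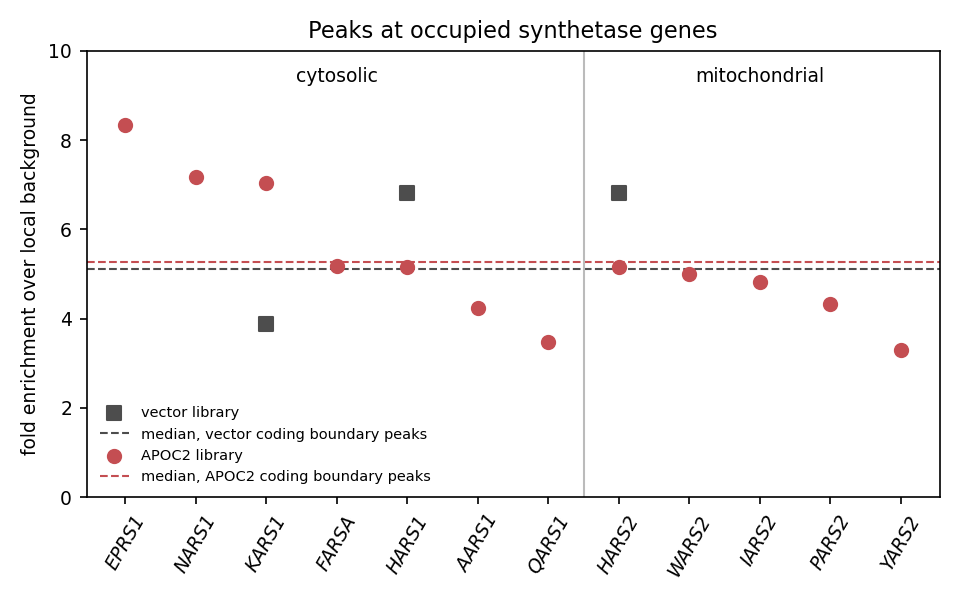
Fold enrichment over local background of the strongest boundary peak (vertical axis) at each occupied synthetase gene, cytosolic genes on the left and mitochondrial on the right, for the vector (grey squares) and APOC2 (red circles) libraries, with 1 library each and no error bars. Dashed lines are the medians of all coding-boundary peaks, 5.11 and 5.28; EPRS1, NARS1 and KARS1 stand above 7 in the APOC2 library, and the points of HARS1 and HARS2 are the same peaks.

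For the 9 genes occupied in APOC2 alone, the nearest vector peak was between 28.2 kb (QARS1) and 4311 kb (EPRS1) away. Their -log10 p in the APOC2 table ranged from 6.36 (QARS1) to 20.03 (EPRS1). Their depth-scaled pileups ran from 16.8 to 52.9. A missing vector peak says that none was listed there and not that PHF8 was absent.

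Peaks just inside the gene were the commonest kind at synthetase starts. Of 11 members with an APOC2 peak within 1000 bp of the start, 6 had the midpoint between 100 and 300 bp inside: FARSA, QARS1, PARS2, EPRS1, YARS2 and IARS2, at 130 to 211 bp. Over all 3442 coding genes assessed in the same way this share was 52.4%, against 54.5% here. The midpoint lay inside the gene at 6 of 11 members (54.5%) and at 72.2% of coding genes. The peaks of KARS1, HARS1 and HARS2 spanned the divergent starts, and the peaks of NARS1 and WARS2 lay upstream, with midpoints 271 and 229 bp before the start. The median unsigned distance was 192 bp for the members and 183 bp for coding genes.

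**Figure D3:**
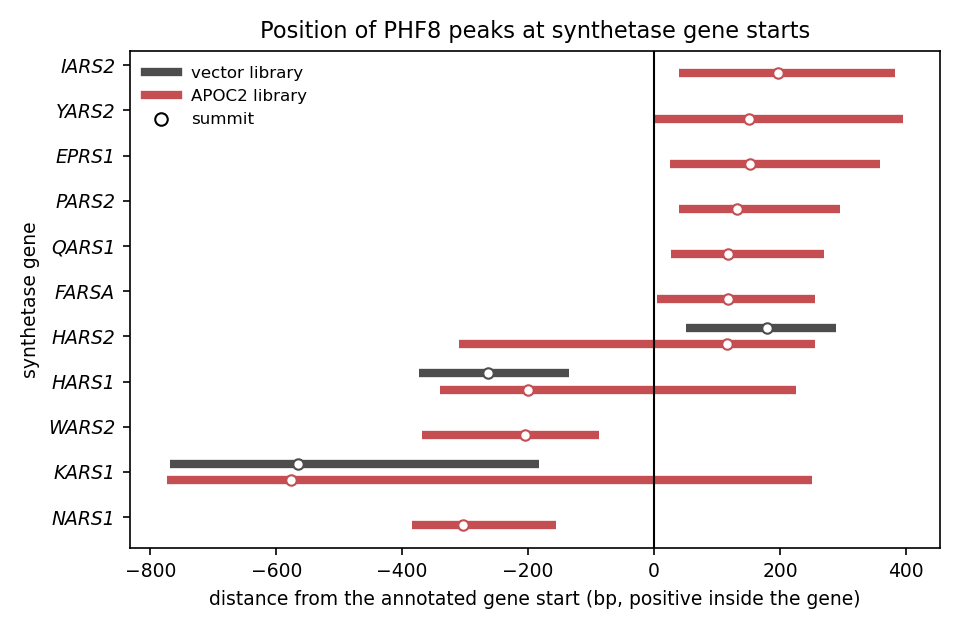
Extent of each PHF8 peak (bars) and its summit (open circles) relative to the annotated start of 11 synthetase genes, in bp along the gene, in the vector (grey) and APOC2 (red) libraries. The peaks of FARSA, QARS1, PARS2, EPRS1, YARS2 and IARS2 lie inside the gene, those of NARS1 and WARS2 lie upstream, and the APOC2 peaks of HARS1, HARS2 and KARS1 cross the start.

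The upstream sequence of NARS1 and WARS2 shows how near to the start their peaks reach. In the 250 bases before each start (RefSeq, GRCh38.p14, minus strand, chr18:57621837-57622086 and chr1:119140673-119140922), the bases inside the APOC2 peak are in capitals. The peak covered 95 of these bases at NARS1 and 163 at WARS2, in both cases the part farther from the start. Both peaks extended farther upstream than the printed bases. WARS2 shares its start region with the antisense gene WARS2-AS1, whose start lay 505 bp from the peak midpoint.
NARS1: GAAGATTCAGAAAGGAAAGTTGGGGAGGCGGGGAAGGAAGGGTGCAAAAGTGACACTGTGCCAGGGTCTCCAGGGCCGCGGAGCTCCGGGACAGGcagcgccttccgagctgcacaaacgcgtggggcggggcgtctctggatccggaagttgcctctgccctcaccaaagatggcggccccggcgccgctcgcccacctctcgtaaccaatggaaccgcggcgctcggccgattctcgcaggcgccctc
WARS2: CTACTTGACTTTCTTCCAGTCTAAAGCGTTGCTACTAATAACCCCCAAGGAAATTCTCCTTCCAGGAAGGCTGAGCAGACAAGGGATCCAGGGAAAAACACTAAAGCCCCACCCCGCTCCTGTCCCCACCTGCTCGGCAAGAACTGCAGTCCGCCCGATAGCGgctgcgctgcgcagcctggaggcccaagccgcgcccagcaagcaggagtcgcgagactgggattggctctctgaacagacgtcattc

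The 23 members without a boundary peak in either library were 12 cytosolic and 11 mitochondrial genes. The cytosolic ones were CARS1, FARSB, GARS1, IARS1, LARS1, MARS1, RARS1, SARS1, TARS1, VARS1, WARS1 and YARS1. The mitochondrial ones were AARS2, CARS2, EARS2, FARS2, LARS2, MARS2, NARS2, RARS2, SARS2, TARS2 and VARS2. Their nearest APOC2 peak lay between 7.54 kb (CARS2) and 1128 kb (TARS1) from a boundary, with a median of 79.3 kb. No member lay just outside the window: the farthest counted midpoint was 487 bp from its boundary (AARS1) and the nearest uncounted one 7.54 kb (CARS2), followed by 8.87 kb (CARS1) and 15.1 kb (SARS2). At CARS1, IARS1, RARS1, VARS1 and LARS2 the nearest peaks of both libraries were within 100 bp of the same distance.

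CARS2, for the mitochondrial cysteinyl-tRNA synthetase, depended on which start is used. The outer limit of the gene lies 7.01 kb upstream of the first RefSeq start listed in the promoter table. An APOC2 peak (chr13:110705870-110706088) with a fold enrichment of 4.47 and 37 fragments had its midpoint 137 bp inside the inner listed start and 536 bp inside the other. With the starts of that table as the sites, which was chosen after the values were seen, 12 of 30 members with an entry had an APOC2 peak, against 25.6% of coding genes, with CARS2 gained and AARS1 lost. This put 6 of 16 cytosolic and 6 of 14 mitochondrial genes in the APOC2 set.

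**Figure D4:**
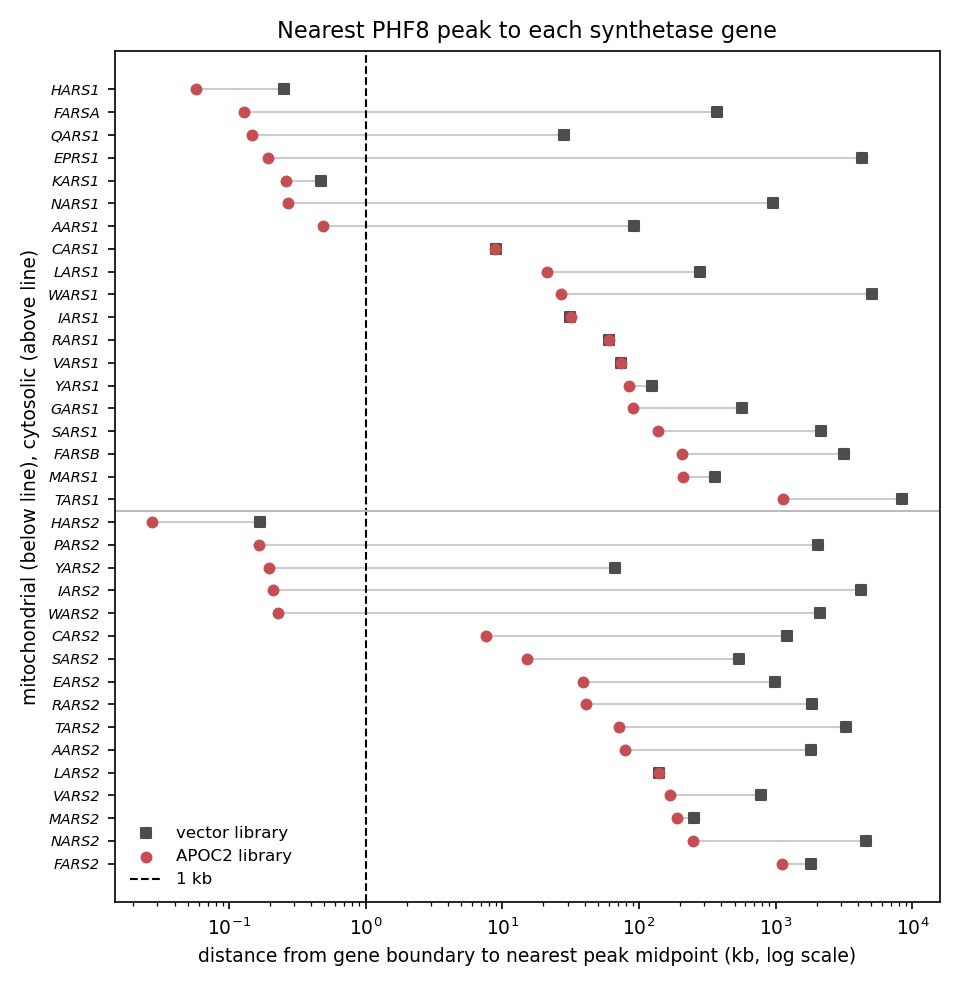
Distance from the nearest gene boundary to the nearest peak midpoint (horizontal axis, kb, log scale) for all 35 synthetase genes in the vector (grey squares) and APOC2 (red circles) libraries, cytosolic genes above the line and mitochondrial below. The dashed line marks 1 kb; no gene lies between 0.487 and 7.54 kb in the APOC2 library.

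Subgroups of the enzymes were described by counts, beside the shares of all coding genes, 5.95% with vector and 23.8% with APOC2. Of the 7 listed genes whose enzymes belong to the multi-synthetase complex, EPRS1, QARS1 and KARS1 were occupied in the APOC2 library (42.9%). IARS1, LARS1, MARS1 and RARS1 were not. Outside the complex 4 of 12 cytosolic genes were occupied (33.3%). Synthetases fall into a pair of structural classes by the fold of the catalytic domain. Of the 16 genes of class II, which includes the histidyl, lysyl and asparaginyl enzymes, 7 were occupied in the APOC2 library (43.8%) and 3 in the vector library (18.8%). Of the 18 genes of class I, which includes the isoleucyl and tyrosyl enzymes, 4 (22.2%) and 0 were, the first being near the share of all coding genes. EPRS1 joins an enzyme of each class and was left out of both. The class II counts rested on 2 vector peaks and 6 APOC2 peaks, because HARS1 and HARS2 share their peak in each library.

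Of 13 pairs of cytosolic and mitochondrial genes whose symbols differ only in the final 1 or 2, such as HARS1 and HARS2, 1 had an APOC2 peak at both genes, and this was the shared histidyl peak. The cytosolic gene alone was occupied for 2 (AARS1 and NARS1). The mitochondrial gene alone was occupied for 3 (IARS2, WARS2 and YARS2). Neither gene was occupied for 7, those for cysteine, leucine, methionine, arginine, serine, threonine and valine. Pairing by symbol leaves out GARS1, KARS1 and QARS1, which have no partner among the members. Of these, KARS1 and QARS1 had an APOC2 peak and GARS1 had none. It also leaves out the genes of proline, glutamate and phenylalanine. For proline, EPRS1 and PARS2 each had an APOC2 peak of its own. For glutamate EPRS1 had a peak and EARS2 had none, and for phenylalanine FARSA had one and FARSB and FARS2 had none.

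Short motifs were then counted in the promoter windows of 300 bases, on both strands, for the 30 members with an entry. TGATGNAA, the core of the C/EBP-ATF element, was found at 8 members (26.7%) and at 3.598% of coding genes. These were 7 of 16 cytosolic genes and 1 of 14 mitochondrial genes. The sites are printed with their context, on the strand of the gene and with the match in capitals, because the same letters recur in many of the cytosolic genes. The letters TTGCATCA, or their reverse complement, were at 6 of the 8 sites, and 6 sites began within 35 bp of a listed start.
AARS1 (chr16:70289675-70289704): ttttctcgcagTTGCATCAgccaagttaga
CARS1 (chr11:3057407-3057436): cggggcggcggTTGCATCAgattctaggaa
GARS1 (chr7:30594834-30594863): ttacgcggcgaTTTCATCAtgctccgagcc
IARS1 (chr9:92293692-92293721): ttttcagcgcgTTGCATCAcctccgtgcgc
MARS1 (chr12:57488053-57488082): gccggttccggTTGCATCAgcgagggattc
NARS1 (chr18:57621804-57621833): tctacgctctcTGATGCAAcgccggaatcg
TARS1 (chr5:33440956-33440985): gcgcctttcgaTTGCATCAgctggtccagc
YARS2 (chr12:32756076-32756105): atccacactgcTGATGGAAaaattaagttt

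Of these 8 genes NARS1 and YARS2 had an APOC2 peak within 1000 bp of the start, but their TGATGNAA matches lay outside it. CARS1, GARS1, IARS1, MARS1 and TARS1 had no boundary peak in either library. AARS1 had its peak at the other end of the gene. Among all 570 coding genes with TGATGNAA, 14.9% had an APOC2 peak within 1000 bp of a listed start, against 25.6% of coding genes with an entry. A match is a description of the letters in the window and does not show that a factor was bound.

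The motif of the zinc finger factor YY1, spelled by the capitals in the lines that follow, was found at KARS1, NARS1 and YARS2, each of which had an APOC2 peak at the start. It was at 10% of the members with an entry and at 1.58% of coding genes. Of those 250 coding genes 46.4% had such a peak, against 25.6% of all coding genes with an entry. Whether the motif goes with a peak was not tested. The sites stand within 100 bp of the start in all 3 genes. They lie inside the APOC2 peak at KARS1 and YARS2 and outside it at NARS1. They are printed with the match in capitals.
KARS1 (chr16:75647623-75647652): gccctccgggAAGATGGCGGCcgtgcaggc
NARS1 (chr18:57621899-57621928): gccctcaccaAAGATGGCGGCcccggcgcc
YARS2 (chr12:32755858-32755887): tgccgctaccAAGATGGCGGCgcccatctt

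The ETS letters CCGGAAGT were at 8 members (CARS1, EARS2, HARS1, HARS2, NARS1, PARS2, TARS1 and WARS1), which were 26.7%, and at 6.97% of coding genes. Of the 8, HARS1, HARS2, NARS1 and PARS2 had an APOC2 peak within 1000 bp of the start. The matches of HARS1 and HARS2 lay inside that peak, and those of NARS1 and PARS2 lay outside theirs. HARS1 and HARS2 have the same matches and the same peak, and both genes are counted in these numbers. Of the coding genes with the motif 41.7% had a start peak, against 25.6% of all coding genes with an entry. CACGTG, the E-box, was at 4 members (CARS2, EARS2, IARS1 and MARS2) and at 10.9% of coding genes. The palindromic NRF1 motif was at 1 member, MARS2, and at 1.99% of coding genes. TGACGTCA, the cyclic AMP response element, was at 0 members and at 2.998% of coding genes. A start peak was also found at 28.5% of coding genes with the E-box, 44.4% with the NRF1 motif and 37.7% with TGACGTCA. No match overlapped a match to another of these motifs.

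CpG content was counted in the same windows, taking for each gene the window richest in CpG. Members with an APOC2 peak at a listed start had a median of 23 CpG dinucleotides in the window, and members without had 26. Over coding genes the medians were 31 with a peak and 21 without, so the order was the opposite; whether the synthetases differ from other genes in this was not tested. The median GC content, by the window richest in GC, was 62.3% and 62.5% in the members, and 69.3% and 62.7% in coding genes.

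Other genes around tRNA and translation were counted from a separate, mixed list of 28. Beside genes that make or charge tRNA it holds EEF1A1, TUFM, LARP1 and genes of the amino acid response. Of these, 1 was occupied in the vector library and 12 in the APOC2 library (3.57% and 42.9%), against 5.95% and 23.8% of all coding genes. TARS3, a threonyl-tRNA synthetase-like gene, was in both, and its fold enrichment was 3.37 with vector and 6.92 with APOC2. DTD2, which clears mischarged D-aminoacyl-tRNA, had the highest APOC2 value, 8.18. PRORP, the nuclease of mitochondrial RNase P, had 7.06, and TRNT1, which adds the CCA end to tRNA, had 5.77. AIMP1, a scaffold of the multi-synthetase complex, had 3.70, whereas its partners AIMP2 and EEF1E1 had no peak. In the amino acid response, EIF2AK4, the kinase that senses uncharged tRNA, had 3.97 and ATF4 had 3.003, while GCN1, ASNS and DDIT3 had none. The median fold enrichment of the 12 genes in the APOC2 library was 4.22, below the 5.28 of all coding boundaries.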

How the data were processed

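PHF8 ChIP-seq was analysed from 1 peak table for each of the vector and APOC2 libraries, grouped by the treatment in the labels. Per the submitters' processing notes, the tools were Bowtie2 2.2.9, MACS2 2.0 and HOMER and the build was hg38; their roles, the control library and the thresholds are not given in the sources used here. Per the file headers, the deposited tables give a fragment pileup signal at each summit and a fold enrichment. The fold enrichment was read as a ratio to the local background with 1 added to both terms. Local backgrounds were calculated from the pileup and the fold enrichment on that reading. A pair of deposited columns had lost its name and was read as -log10 p and -log10 q from its place and values.

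Positions were matched to RefSeq genes (GRCh38.p14). A gene was counted as occupied when a peak midpoint lay within 1000 bp of either outer limit. All 35 members matched, and 30 had promoter windows (250 bases before to 50 after a listed start). Every member was accounted for; full values were given for members occupied in the vector library, for the 5 cytosolic members (all that qualified) and up to 5 mitochondrial members occupied in APOC2 alone.

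Vector pileups were whole multiples of 0.98953 within 0.006 of the pileup unit, and 63.5% of APOC2 backgrounds above 1.5 were whole multiples of 0.832 within 0.005 of a step. Assuming a common control, this puts the APOC2 depth at 0.824 of the vector depth. The depth-scaled pileup puts both on the scale of the control. Ratios of pileups carry exact (Clopper-Pearson) 95% intervals conditional on the summed fragments; these cover counting error only. With 1 library per condition no test was made between conditions. The members and lists were chosen with earlier results of these data known. A pair of genes from the planned list of other pathway genes is not reported here. The assignment was tested on simulated peaks. Python 3.11.15, pandas 2.3.3 and scipy 1.17.1 were used.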

Additional observations from a re-analysis of the deposited data

How the results depend on the processing

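No paired analysis was possible because there was 1 library per condition, and for the same reason no replicate could be left out. A 3 kb window, the summit in place of the midpoint and a q-value of at most 0.001 left every count of occupied synthetase genes as it was, and the gene start alone or the starts of the promoter table moved each count by at most 1. With direct overlap of peak and boundary, 0 members were occupied in the vector library and 4 in APOC2 (4 in APOC2 alone), with 0 and 2 cytosolic (2 in APOC2 alone) and 0 and 2 mitochondrial genes (2 in APOC2 alone); the members left were HARS1, KARS1, HARS2 and YARS2. With a fold enrichment of at least 5 there were 7 in APOC2 and 5 in APOC2 alone, 1 cytosolic gene in the vector library, and 2 mitochondrial genes in APOC2 with 1 in APOC2 alone. With equal numbers of top-ranked peaks there were 6 in APOC2 and 5 in APOC2 alone, and 1 mitochondrial gene (IARS2) in APOC2, also in APOC2 alone, beside 1 in the vector library; HARS1 and HARS2 were then occupied in the vector library only. These settings leave fewer peaks or a narrower window by construction, and the share of all coding genes is not given for them. The median fold enrichment of the 11 APOC2 peaks was 0.936 times that of the 2 vector peaks, and with pileup the ratio reversed to 1.03; no vector peak overlapped a boundary, so that setting gave no ratio. The log2 ratios kept their sign under every measure, from -0.62 to -0.19 for the histidyl pair and from 0.68 to 1.41 for KARS1; the histidyl peaks did not overlap by 50% of both.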

Other observations

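The substrates of these enzymes, the tRNA genes, were rarely near a peak. Of 443 annotated nuclear tRNA genes, 9 (2.03%) had a peak midpoint within 1000 bp in the vector library and 19 (4.29%) in the APOC2 library, and all 9 were in both. The 19 genes rested on 18 APOC2 peaks, with a median fold enrichment of 5.37. The window around a tRNA gene covers little more than its flanks, and a coding gene has distant ends with a window at each, so the shares of the gene kinds are not on one scale. TRR-ACG2-1, an arginine tRNA gene on chromosome 3, had 3.19-fold enrichment with vector and 6.78-fold with APOC2. At TRT-TGT5-1 and TRY-GTA5-5, a threonine and a tyrosine tRNA gene on chromosome 14 that share 1 peak, it was 5.56 and 3.67. That pair had the lower value in the APOC2 library, and every other tRNA gene with a peak in both libraries had the higher value there. The histidyl synthetase pair also had the lower value with APOC2, a fall not distinguishable from no change at its depth. No counting interval was calculated for the tRNA peaks.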
